A study of Drosophila melanogaster with 3 samples.

Results

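The segmentation and Hox genes of the fly were examined for binding of HLHm7, using 32 genes named by symbol: 5 maternal and head genes, 5 gap genes, 2 terminal gap genes, 8 pair-rule genes, 4 segment polarity genes and 8 Hox genes. All 32 were found among the 13945 protein-coding genes on the main chromosome arms. Binding came from chromatin immunoprecipitation followed by sequencing (ChIP-seq) on whole Drosophila melanogaster embryos of mixed sex, aged 0 to 16 h, from a transgenic line whose HLHm7 carries GFP at its C-terminal end. The antibody was directed against GFP. There were 3 biological replicates of this 1 group and no second genotype, treatment or stage, and what drives the transgene is not given in the sources used here. A gene was counted as bound when the summit of a peak fell inside its annotated span or up to 2 kb upstream of it, on build dm6.

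E(spl)m7-HLH encodes HLHm7, a repressor of the basic helix-loop-helix class that works with the corepressor Groucho downstream of Notch. The segmentation genes act as a cascade in the early embryo. Maternal proteins such as Bicoid set up broad gap gene domains, gap proteins position the pair-rule stripes, pair-rule proteins switch on the segment polarity genes, and the Hox genes give the segments their identities. Many of these genes are read from enhancers that lie far from the promoter, and the Hox genes sit in the Antennapedia and bithorax complexes.

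The authors deposited 5 lists on dm6 that were used here: an optimal set of 2397 peaks that passed their reproducibility test (irreproducible discovery rate, IDR), a pooled list of 30000 regions, and 30000 regions for each replicate. The optimal set is the top 2397 of the pooled list by signal, and the longer lists contain background regions. Signal is the authors' own value per region, with no stated scale, so it is read as a rank within a list, where rank 1 is strongest. Read numbers are not given, so the depth is unknown. In whole embryos, weak binding in many cells and strong binding in few cells cannot be told apart. With 1 group, the counts below describe the genes beside all protein-coding genes, and no difference between those was tested.

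Only bcd, cad, inv and Antp, 4 of the 32 genes (12.5%), held an optimal peak, against 17.1% of all protein-coding genes. The 4 genes hold 6 optimal peaks, 3 of them in Antp. None of the 5 gap, 2 terminal gap or 8 pair-rule genes held one under this assignment. A region of any rank in the pooled list was present at 27 of the 32 genes (84.4%), against 76.0% of all genes. The genes without a pooled region were btd, Kr, gt, slp2 and en. Their absence from a list that reaches far into background does not show that they are unbound.

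The count, and whether it stood below or above that of all genes, depended on the assignment. Giving each optimal peak to the gene with the nearest TSS, 6 of 32 genes had a peak (18.8%: bcd, ems, ftz, slp2, inv and Antp), against 13.2% of all genes. With the gene span alone it was 3 of 32 (9.38%: cad, inv and Antp), against 7.87%. Under both of these rules the share of the 32 genes was thus the higher one, and under the others it was the lower one. With 5 kb upstream it was 5 of 32 (15.6%, with slp2 added), against 22.5%, and with any overlap of peak and window the same 4 (12.5%), against 17.9%. With 10 kb allowed on both sides it was 8 of 32 (25.0%), against 43.8% of all genes, and btd, slp1, slp2 and abd-A joined the 4. Within 1 kb of an own transcription start site (TSS) it was 1 of 32 (3.12%, bcd), against 12.4%, and with only the 1198 strongest optimal peaks it was 1 of 32 (3.12%, cad), against 9.49%. Pooled regions with a q-value under 0.05 gave the same 4 genes, 12.5%, against 19.9% of all genes.

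**Figure D1:**
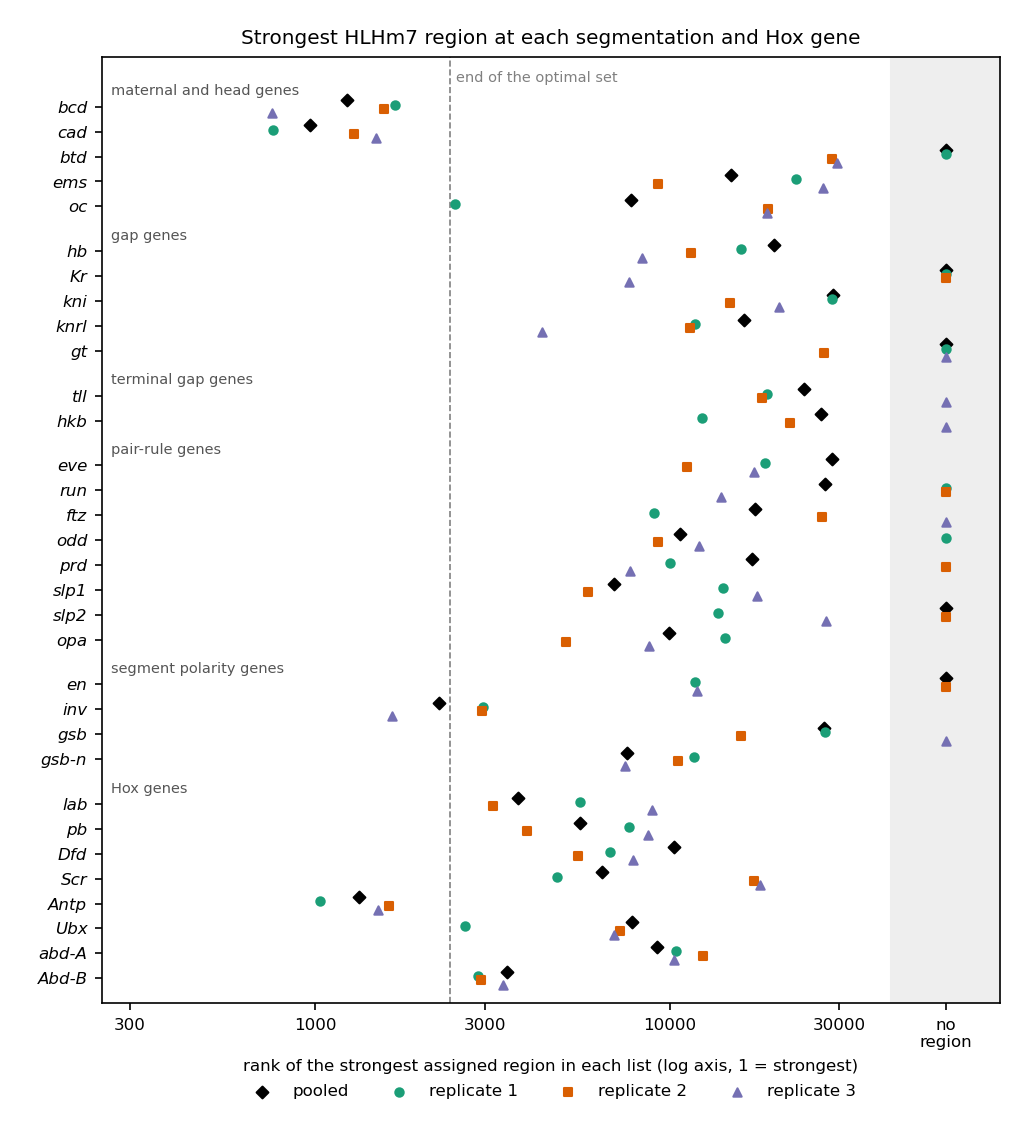
Rank of the strongest region assigned to each of the 32 genes in the pooled list and in the list of each replicate, on a log axis with rank 1 strongest; the dashed line marks rank 2397, the end of the optimal set, and the grey band holds genes with no region. Only bcd, cad, inv and Antp lie left of the line in the pooled list.

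The sequences at the summits are shown for the peaks that carry these results, as 201 bases of the plus strand of dm6 from RefSeq, centred on the summit. The set holds bcd, cad and the 3 Antp peaks, and 3 strong peaks between neighbouring genes that are described further on. Capitals mark matches to the 8 motifs searched on both strands, which were the class B site CACGTG, the class C site CACGCG, the E-boxes CAGCTG and then CACCTG, the Zelda site CAGGTAG, the GAGA factor core GAGAG, the Pho core GCCAT and the DRE, TATCGATA. None of these contains another. On the other strand GAGAG reads CTCTC and CAGGTAG reads CTACCTG. None of these windows overlaps an annotated exon.
cad, rank 963 (chr2L:20780870-20781070): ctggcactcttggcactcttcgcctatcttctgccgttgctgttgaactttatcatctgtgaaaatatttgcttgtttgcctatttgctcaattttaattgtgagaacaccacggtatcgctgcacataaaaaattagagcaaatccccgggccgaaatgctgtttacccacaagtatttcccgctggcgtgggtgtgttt
bcd, rank 1227 (chr3R:6759571-6759771): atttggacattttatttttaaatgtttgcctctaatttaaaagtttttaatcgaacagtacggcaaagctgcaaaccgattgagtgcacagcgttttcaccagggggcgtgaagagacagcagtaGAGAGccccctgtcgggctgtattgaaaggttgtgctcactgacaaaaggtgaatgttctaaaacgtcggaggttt
Antp, rank 1324 (chr3R:6912312-6912512): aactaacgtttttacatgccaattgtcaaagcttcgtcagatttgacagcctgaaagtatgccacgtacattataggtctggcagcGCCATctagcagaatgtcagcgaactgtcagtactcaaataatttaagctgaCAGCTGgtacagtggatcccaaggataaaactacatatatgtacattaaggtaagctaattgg
Antp, rank 1980 (chr3R:6914443-6914643): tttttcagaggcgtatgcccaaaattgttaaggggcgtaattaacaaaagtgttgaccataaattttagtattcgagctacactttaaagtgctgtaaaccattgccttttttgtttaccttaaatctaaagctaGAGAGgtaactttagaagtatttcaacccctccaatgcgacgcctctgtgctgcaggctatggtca
Antp, rank 2293 (chr3R:6920066-6920266): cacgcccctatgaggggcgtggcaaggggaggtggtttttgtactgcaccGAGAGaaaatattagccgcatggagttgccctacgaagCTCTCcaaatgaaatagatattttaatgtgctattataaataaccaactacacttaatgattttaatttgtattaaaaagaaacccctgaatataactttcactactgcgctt
bithorax complex peak, rank 92 (chr3R:16798759-16798959): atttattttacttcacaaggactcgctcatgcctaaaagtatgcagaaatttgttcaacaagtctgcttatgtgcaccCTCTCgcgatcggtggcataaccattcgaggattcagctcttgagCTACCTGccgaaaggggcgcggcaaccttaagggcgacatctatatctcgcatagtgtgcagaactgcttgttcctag
slp1 to slp2 peak, rank 183 (chr2L:3832427-3832627): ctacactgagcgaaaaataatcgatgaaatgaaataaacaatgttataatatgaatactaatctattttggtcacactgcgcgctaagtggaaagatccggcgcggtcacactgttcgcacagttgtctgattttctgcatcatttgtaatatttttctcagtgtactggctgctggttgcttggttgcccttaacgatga
odd locus peak, rank 531 (chr2L:3574065-3574265): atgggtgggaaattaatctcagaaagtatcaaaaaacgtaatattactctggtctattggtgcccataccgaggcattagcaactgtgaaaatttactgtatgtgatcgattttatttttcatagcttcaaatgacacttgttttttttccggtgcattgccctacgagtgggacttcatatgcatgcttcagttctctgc

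Among the maternal and head genes, cad had the strongest peak assigned to any of the 32. Caudal is a homeodomain protein of the posterior embryo. The cad peak (chr2L:20780778-20781161) had a pooled signal of 161 and a −log10 q of 3.32, and ranked 963. Its rank was 761 in replicate 1, 1282 in replicate 2 and 1482 in replicate 3, all within the top 2397. It lay in an intron, 10076 bp downstream of the cad TSS, and the nearest TSS was that of the neighbouring gene Pomp, with the summit at -6686 bp from it (upstream). A further cad region at 469 bp from the TSS ranked 4609, with counterparts at 4680 in replicate 1 and 4246 in replicate 2 and no counterpart in replicate 3.

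The peak of bcd, which encodes the anterior morphogen, was the only one of the 6 within 500 bp of a TSS. It lay at -205 bp from the bcd TSS (chr3R:6759479-6759862), with a signal of 140, a −log10 q of 2.91 and a pooled rank of 1227. Its ranks were 1677, 1556 and 756 in replicates 1, 2 and 3, so each list placed it in the top 2397. The 3 head gap genes had no optimal peak. The strongest pooled region of oc, which encodes the homeodomain protein Orthodenticle, ranked 7785, and that of ems, another homeodomain gene, ranked 14818. The oc region had a counterpart in replicate 1 only, at 2482. For btd, a zinc finger gene, regions were listed in replicate 2 (28535) and replicate 3 (29477) alone.

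The gap genes, which lay out the broad regions of the trunk, had only low-ranked regions. Their best pooled ranks were 19636 for hb, 16199 for knrl and 28831 for kni, and Kr and gt had none. Kr, a zinc finger gene, had a region in replicate 3 only, at 7667, and gt, a leucine zipper gene, in replicate 2 only, at 27111. The best replicate region of the group was that of knrl in replicate 3, at 4367, and it ranked 24912 in the pooled list. The terminal gap genes were similar, with best pooled ranks of 23837 for tll and 26705 for hkb and no region of either in replicate 3.

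The 8 pair-rule genes, whose stripes prefigure the segments, likewise had no optimal peak, and 7 had a pooled region. The best was slp1, a forkhead gene, at rank 6931, 383 bp from its TSS, with ranks of 14108, 5864 and 17591 in replicates 1, 2 and 3. It was the only pair-rule region found in all 3 replicates. After slp1 came opa at 9961, odd at 10699, prd at 17023, ftz at 17356, run at 27401 and eve at 28576. The promoter-proximal region of odd, which encodes a zinc finger repressor, had counterparts in replicates 2 (9223) and 3 (12082). The run region had a counterpart in no replicate. The median best rank of the 7 genes was 17023.

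Of the segment polarity genes, which maintain the boundaries of segments, inv alone had an optimal peak. Invected is a homeodomain protein closely related to Engrailed. The inv peak (chr2R:11500436-11500819) lay in an intron 24920 bp from the inv TSS and ranked 2228, near the end of the optimal set, with a signal of 95.1 and a −log10 q of 2.02. It ranked 2959 in replicate 1, 2941 in replicate 2 and 1646 in replicate 3, so only replicate 3 placed it in its top 2397. An adjoining region of inv with its summit at 25119 bp ranked 10588 in the pooled list and was matched to the same replicate 2 region. The neighbouring gene en had no pooled region, and its best replicate ranks were 11772 in replicate 1 and 11903 in replicate 3. The paired-type genes gsb-n and gsb had best pooled ranks of 7559 and 27101.

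All 8 Hox genes had a pooled region, and they hold 70 of the 120 pooled regions assigned to the 32 genes, in 354 of 578 kb of window. Antp, which specifies thoracic identity, has the longest window, 105 kb, and held 18 regions. Its strongest peak (chr3R:6912220-6912603) lay in an intron 20428 bp from the nearest Antp TSS, with a signal of 134, a −log10 q of 2.95 and a pooled rank of 1324. Its ranks of 1030, 1608 and 1497 in replicates 1, 2 and 3 were all in the top 2397.

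The other Antp peaks were weaker, and neither was in the top 2397 of every replicate. The peak at 18297 bp (chr3R:6914351-6914734) had a signal of 102 and ranked 1980, and its ranks were 2904, 2336 and 2289 in replicates 1, 2 and 3. The peak at 12674 bp (chr3R:6919974-6920357) had a signal of 93.2 and ranked 2293, and its ranks were 1388, 3996 and 2068. In the top 2397, replicate 1 thus had only the peak at 12674 bp, replicate 2 only the peak at 18297 bp, and replicate 3 both. Just below the optimal set came Antp regions at ranks 3151 and 3355, with −log10 q values of 1.14 and 1.03.

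The remaining Hox genes had best pooled ranks between 3473 and 10285. Abd-B, the most posterior Hox gene, came closest to the optimal set, with a region at rank 3473, 2322 bp from an Abd-B TSS, that ranked 3545, 9182 and 3387 in replicates 1, 2 and 3. The head Hox gene lab followed at 3737, with replicate ranks of 5558, 3166 and 8906. Both regions were thus found in all 3 replicates, outside the top 2397 of each. Next were pb at 5585, Scr at 6409, Ubx at 7816, abd-A at 9172 and Dfd at 10285. Ubx, which sets the identity of the third thoracic segment, had 15 pooled regions in 79.8 kb, and only the strongest of them was found in all 3 replicates. The median best rank was 5997 for the 8 Hox genes. Their windows total 354 kb, against 52.4 kb for the 8 pair-rule genes, so the best is taken from more regions. Per 10 kb of window the Hox genes held 1.98 pooled regions, against 2.48 for the pair-rule genes. Of the 6 classes only the gap genes, at 1.80, held fewer.

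Long genes offer more sequence to be hit, and the share of genes with an optimal peak was therefore read by window length, in length bins that were set with the values already known. Of the genes with a window under 5 kb, 0 of 11 held an optimal peak, against 11.0% of all genes. For windows of 5 to 15 kb it was 2 of 10 (20.0%), against 21.6%. For windows of 15 kb or more it was 2 of 11 (18.2%, inv and Antp), against 40.0%. The median window was 7.72 kb for the 32 genes and 4.17 kb for all genes.

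**Figure D2:**
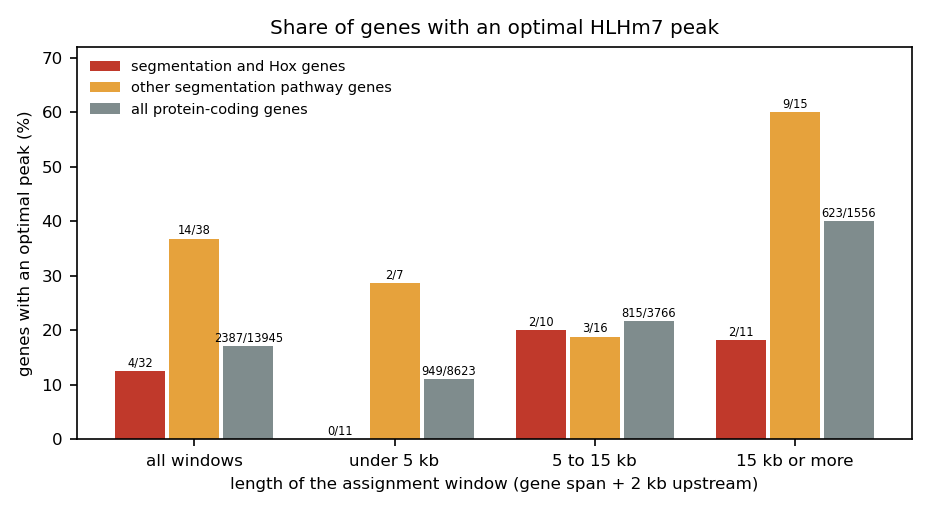
Percent of genes with an optimal peak in the span or up to 2 kb upstream, for all windows and by window length; bars are the 32 segmentation and Hox genes, 38 other genes of the pathway and all protein-coding genes, with counts above. The bars of the 32 genes stand at 12.5% over all windows, 0 under 5 kb, 20.0% from 5 to 15 kb and 18.2% at 15 kb or more.

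The 3 highest-ranked peaks in the loci of these genes lay outside the windows of the 32 genes, at ranks 92, 183 and 531. In the Antennapedia complex, the en and inv locus and the gsb and gsb-n locus the strongest region was inside a window, at ranks 1227, 2228 and 7559. In the bithorax complex a narrow peak of 210 bp (chr3R:16798765-16798974) had a signal of 482 and ranked 92 in the pooled list, 90 in replicate 1, 76 in replicate 2 and 153 in replicate 3. It was intergenic, 8.36 kb outside the window of abd-A and 10548 bp from the TSS of Glut3, a predicted sugar transporter gene. Between slp1 and slp2, a peak of 171 bp (chr2L:3832439-3832609) had a signal of 348 and ranked 183, with ranks of 229, 219 and 131 in replicates 1, 2 and 3. It lay upstream of slp2, at -4313 bp from the TSS. Both of these peaks stood far inside the top 2397 of each replicate.

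In the locus of odd and its paralogs sob and drm, peaks at ranks 531 and 1559 (chr2L:3573973-3574356 and chr2L:3573350-3573733) lay at -2045 and -2668 bp from the TSS of CG43815. The stronger had a signal of 219 and ranked 658, 450 and 556 in replicates 1, 2 and 3. The weaker ranked 2184, 1289 and 1550, again inside the top 2397 of each. The optimal peak nearest to odd was on the other side, near the gene for, and lay 23.8 kb outside the window of odd.

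The Antennapedia complex, 340 kb from lab to Antp, held 6 optimal peaks and 77 pooled regions, 2.27 per 10 kb, against 2.41 on its whole arm. Of the 77, 44 were in windows of the named genes and 33 outside them. The optimal peaks outside were at rank 1355, 17471 bp from the ftz TSS (1602, 1482 and 1380 in replicates 1, 2 and 3), and at rank 2357, 285 bp inside Ama (2687, 4893 and 2638). The bithorax complex, 318 kb from Ubx to Abd-B, held 2 optimal peaks and 61 pooled regions, 1.92 per 10 kb, against the same 2.41. Besides rank 92 it had the peak at rank 1928, in an intron 26888 bp from the TSS of MSAmiP, with ranks of 5863, 2162 and 1453. Neither complex thus had more pooled regions per length than its arm.

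**Figure D3:**
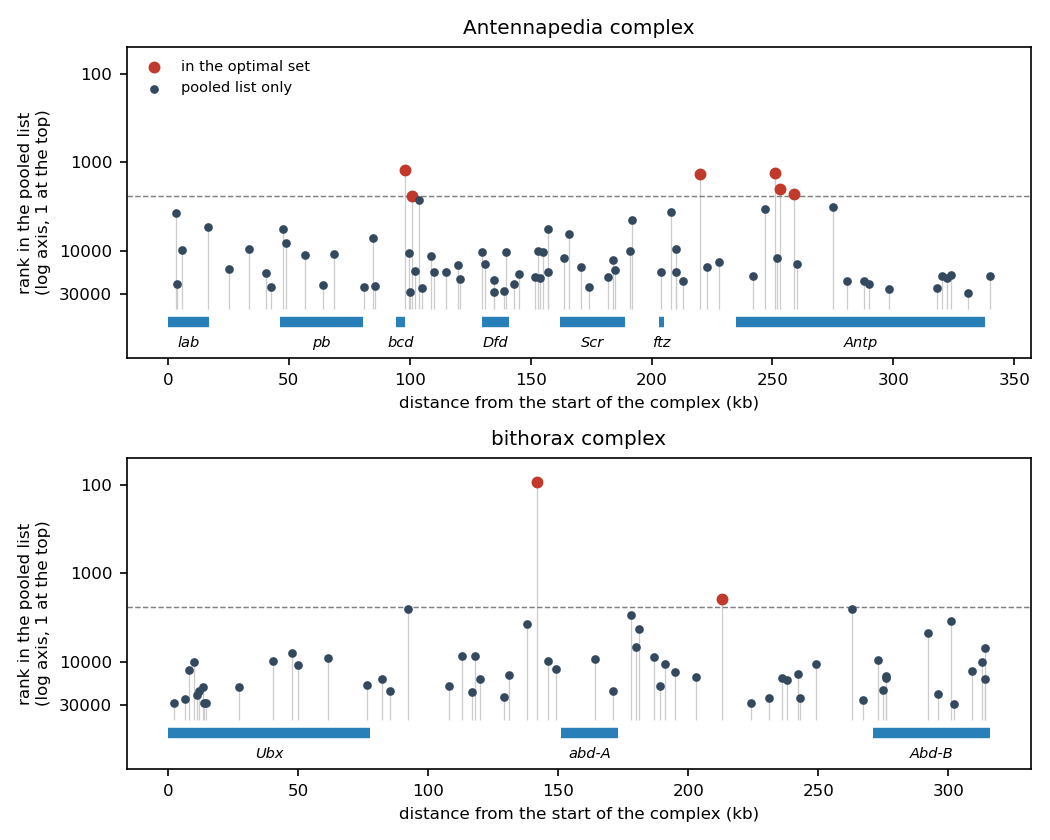
Pooled regions of the Antennapedia complex and the bithorax complex by distance from the start of each complex (kb) and rank in the pooled list (log axis, rank 1 at the top); red points are optimal peaks, the dashed line is rank 2397 and blue bars are the genes. The region at rank 92 stands apart from the other 60 of the bithorax complex and lies outside the gene bars.

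In the kni and knrl locus, 100 kb, there were 26 pooled regions and no optimal peak, and the best ranked 2449, just outside. The en and inv locus had 12 regions in 57.7 kb (2.08 per 10 kb, against 2.33 on the arm), and gsb with gsb-n had 6 in 24.3 kb (2.47, against 2.33). The odd, sob and drm locus had 26 in 71.5 kb (3.64, against 2.39). These values show loci both above and below their arms.

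Measured from each gene, the nearest optimal peak lay a median of 16.9 kb outside the window for the 32 genes and 12.1 kb for all genes, where a peak inside counts as 0. The largest distance among the 32 was 79.1 kb, for lab. The nearest peak of ems was at rank 564, 13075 bp downstream of the ems TSS and 10.3 kb outside its window, with ranks of 557, 711 and 567 in replicates 1, 2 and 3. For btd the nearest was at rank 761, 4.41 kb outside the window and at -714 bp from the TSS of nej, which encodes a histone acetyltransferase. For eve it was a peak at rank 42 in the promoter of Pdrg1, 17.4 kb outside. The nearest peak thus often belonged by TSS to another gene.

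Among their top regions, the replicates gave nearly the same list of bound genes. Each replicate was cut to its own top 2397 regions. In replicate 1, 3 of 32 genes had a top region (9.38%, bcd, cad and Antp), against 17.3% of all genes, in replicate 2 the same 3 (9.38%), against 16.6%, and in replicate 3 those and inv (12.5%), against 17.2%. A top region in every replicate was found at 3 of 32 (9.38%), against 11.5%. Each full replicate list had a region at 27 of 32 genes (84.4%). Of all genes it was 76.0% in replicate 1, 76.5% in replicate 2 and 75.2% in replicate 3. These were not the same 27 genes in each list. Replicate 1 lacked btd, Kr, gt, run and odd. Replicate 2 lacked Kr, run, prd, slp2 and en, and replicate 3 lacked gt, tll, hkb, ftz and gsb.

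**Figure D4:**
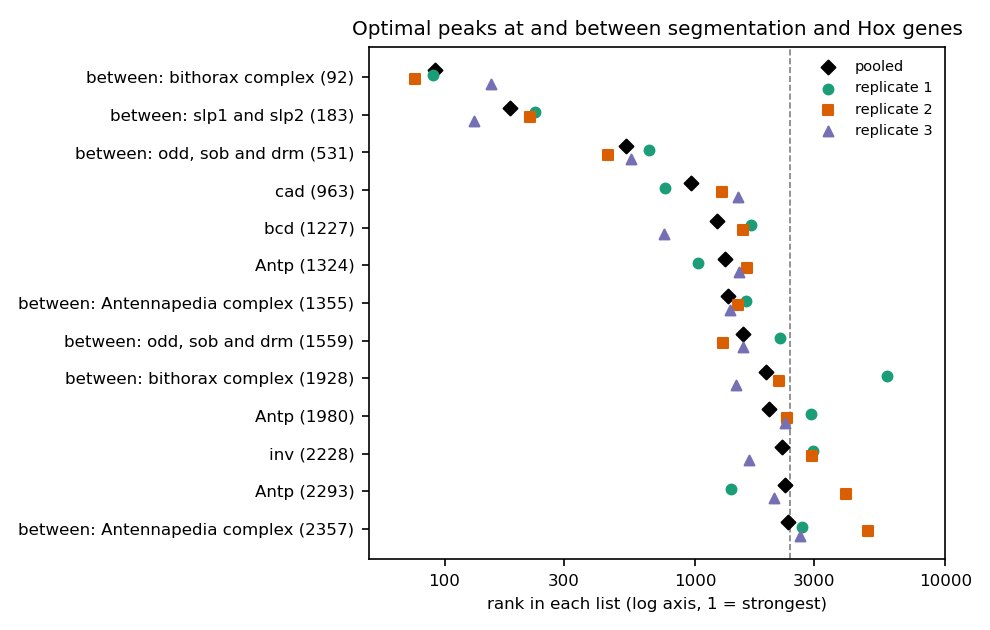
Ranks of the 6 optimal peaks assigned to the 32 genes and of the 7 in their loci outside those windows, labelled as between. Ranks are given in the pooled list and in each replicate (log axis, rank 1 strongest, pooled rank in parentheses). Of the 7, the peak at rank 1928 lay in an intron and the peak at rank 2357 at the Ama promoter. The dashed line is rank 2397. The upper 7 peaks, down to pooled rank 1355, lie left of the line in every list, and the lower ones cross it in at least 1 replicate except the peak at rank 1559.

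All 6 optimal peaks of these genes had a counterpart within 200 bp in every replicate, as did 97.4% of the whole optimal set. That set was selected for reproducibility, so a counterpart in each list of 30000 regions was largely built in. Of the 120 pooled regions, 23 (19.2%) had one in all 3 replicates, against 23.6% of the whole pooled list. By replicate, 64.2% had a counterpart in replicate 1, 60.8% in replicate 2 and 43.3% in replicate 3, against 63.7%, 65.5% and 52.2% of the whole list. The 120 regions had a median rank of 18443, against 15000 for the list as a whole, so they stood somewhat lower in it. Among genes with a pooled region, the best one ranked 9961 at the median for the 27 and 7606 for all 10594. The medians in replicates 1, 2 and 3 were 10391, 10539 and 8722, against 7302, 7594 and 7483.

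By position, 72 of the 120 regions (60.0%) were in introns, against 32.6% of the pooled list. Most of these intronic regions lay in the Hox genes, above all Antp and Ubx, and the Hox genes hold 70 of the 120 regions. At the other genes the intron share was nearer to that of the list. Promoters, taken as 500 bp to either side of any TSS, held 10.8% of the 120, against 21.7%, and exons held 24.2%, against 25.3%. Of the Hox genes only pb and Dfd had a promoter region. At the other genes the promoter share was near that of the list. Intergenic sequence held 5.00%, against 20.4%, a share that the assignment to genes itself keeps low. By the same step the assignment raises the shares of the other positions, introns among them. Of the 6 optimal peaks 5 were intronic and 1 was at a promoter, while the whole optimal set had 38.1% in introns and 44.7% at promoters. Summits of the 120 regions lay a median of 4974 bp from a TSS, against 2068 bp for the list.

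**Figure D5:**
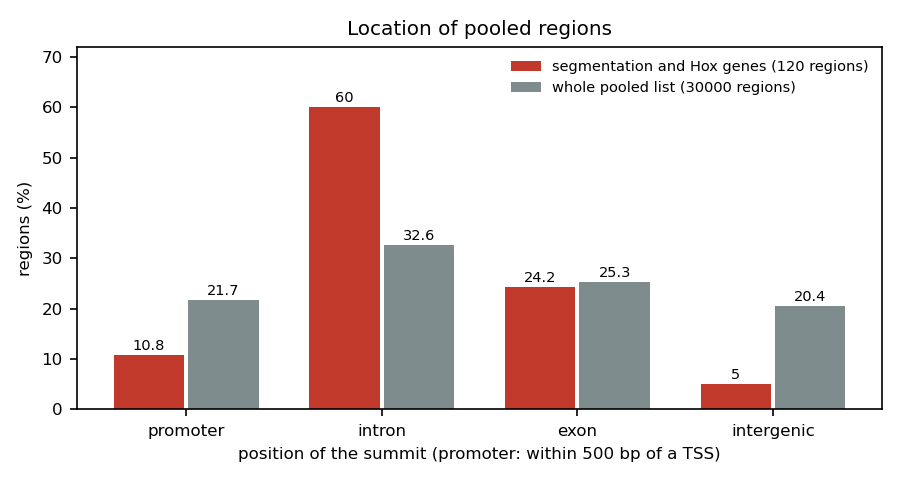
Percent of pooled regions whose summit lies at a promoter (up to 500 bp from a TSS), in an intron, in an exon or between genes, for the 120 regions of the segmentation and Hox genes and the 30000 of the whole list. Introns hold 60.0% of the 120 regions and 32.6% of the list, and most of the intronic regions among the 120 lie in Hox genes.

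Close to an own TSS, an optimal peak was found at 1 of 32 genes (3.12%, bcd), against 10.3% of all genes, with a limit of 500 bp. A pooled region was that close at 12 of 32 (37.5%), against 44.1%. These 12 were bcd, cad, oc, tll, hkb, run, odd, prd, slp1, opa, pb and Dfd. Per length, the windows of the 32 genes held 2.07 pooled regions per 10 kb, against 2.73 for the windows of all genes and 2.24 for the arms as a whole.

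The motifs were counted within 100 bp of each summit. CACGTG and CACGCG, the class B and class C sites that Hairy and E(spl) proteins are known to bind, were in 0 of the 6 optimal windows, against 2.88% and 3.21% of all optimal windows. In the 120 pooled windows CACGTG was in 0.833%, against 3.02%, and CACGCG in 4.17%, against 5.31%. With so few windows these shares give no reading of the protein's own site. The E-box CAGCTG was in 1 of the 6, the strongest Antp peak, against 10.4% of optimal windows, and CACCTG was in none, against 6.09%.

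GAGAG, the core of the GAGA factor site, was in 3 of the 6 windows, those of bcd and the weaker Antp peaks, against 24.2% of all optimal windows, and in 38.3% of the 120 pooled windows, against 24.9%. GCCAT, the core bound by the Polycomb group protein Pho, was in 1 of the 6, against 28.6%, and in 48.3% of the 120, against 40.6%. The Zelda site CAGGTAG and TATCGATA, the DRE of many housekeeping promoters, were in none of the 6, against 0.709% and 3.38%. In the 120 they were in 0.833% and 0%, against 1.33% and 1.13%. The peak at rank 92 in the bithorax complex, shown above, has a GAGAG and a CAGGTAG match on the minus strand. Median GC content was 39.8% in the 6 windows and 37.3% in all optimal windows, and 50.2% in the 120 and 47.8% in the pooled list. A match is a string of letters and not a tested site.

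The other genes of the pathway were taken from a list of 38 regulators, cofactors and signalling genes. Of these, 14 (36.8%) held an optimal peak, against 17.1% of all genes, and 32 (84.2%) held a pooled region, against 76.0%. Their windows had a median of 11.2 kb, against 4.17 kb for all genes. Windows of 15 kb or more gave 9 of the 14, from 15 such genes (60.0%), against 40.0% of all genes with windows of that length. For windows of 5 to 15 kb it was 3 of 16 (18.8%), the lower share, against 21.6%. Under 5 kb it was 2 of 7 (28.6%), against 11.0%. The strongest belonged to gro, the Groucho gene beside the E(spl) genes, with a signal of 737 and rank 38, at -131 bp from the TSS. It was followed by fz, which encodes a Wnt receptor, at rank 277, cic, a repressor gene of the terminal system, at 543, bowl, a paralog of odd, at 592, and pum, a translational repressor gene, at 650. Below these came hth at 1129, Stat92E at 1223, ftz-f1 at 1291, nos at 1320 and cnc at 1981. The nos peak lay at the promoter of a neighbour, at -24 bp from the TSS of CG11779 and -402 bp from that of nos. The fz peak at rank 277 was intronic, 29710 bp from the fz TSS. Its nearest TSS was that of CG13482, at -25293 bp. The gro peak ranked 30, 38 and 54 in replicates 1, 2 and 3, and the nos peak 1171, 925 and 10991, so that the nos peak was far lower in replicate 3 than in the others. Their best pooled regions had a median rank of 5018 over 32 genes, against 9961 for the 27 segmentation and Hox genes.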

How the data were processed

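Anti-GFP ChIP-seq peak lists of 3 biological replicates, 1 group, were used; sonicated chromatin had a size range of 200 to 800 bp, per the labels. Per the deposited descriptions, the authors called regions per replicate and on the pooled replicates, all against 1 control alignment, and took the optimal set by IDR. For the aligner, caller, versions and IDR threshold, details were not given in the sources used here. The control itself is not used here. The deposited signal has no stated scale and was ranked within a list. The deposited q-value is given as −log10. The deposited summit is an offset from the region's start.

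Summits were placed on Ensembl release 115 gene models and the matching RefSeq dm6 sequence, with Python 3.11.15, NumPy 2.4.6, pandas 2.3.3 and Matplotlib 3.10.9. Every region ended inside its arm, and no pair of replicates held identical signals. Replicate regions matched at summits within 200 bp. Assignment was tested on simulated data, where 200 of 200 placed summits returned to their gene. Genes were named by rule: all 32 are accounted for, those with an optimal peak in full, and up to 10 other pathway genes by signal. The members and lists were chosen with earlier results of these data known. Alternatives were other windows, thresholds, matching distances and leaving out each replicate. Lists on dm3 were not used.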

Additional observations from a re-analysis of the deposited data

How the results depend on the processing

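Of 27 alternatives, 18 left their result within 1.5 times the value given, or within the spread over replicates. Some of the 18 could not have come out otherwise. A motif absent within 100 bp of the summits is also absent within 50 bp. Counterparts found within 200 bp are also found within 500 bp. With 32 genes in all, the 27 with a pooled region could not rise 1.5 times in wider windows. Each value was compared with its own main value and not with that of all genes. The tally of 0 reversed therefore says nothing of the direction against all genes. The share of genes with an optimal peak did change sides with the gene span alone (9.38%, against 7.87% of all genes). It did so too with the nearest TSS (18.8%, against 13.2%). The 4 genes with an optimal peak became 8 with 10 kb to both sides, 1 within 1 kb of a TSS and 1 with the 1198 strongest peaks. The 27 genes with a pooled region became 17 with the 15000 strongest pooled regions; that alternative, other windows for this count and a q-value limit of 0.05 were added after seeing the data. The median best rank of 9961 became 3781 with 10 kb to both sides. Genes with a top region in every replicate, 3 in all, became 0 with the top 1198 regions and 5 with the top 4794. For these counts, for the 17 genes and for the median of 3781, no value over all genes is given here. They therefore show nothing of how the 32 genes stand beside all genes. Promoter regions rose in number to 23 with 1 kb, against 13 with 500 bp. With 1 kb this was 19.2% of the regions, beside 34.2% of the whole pooled list. With 500 bp it was 10.8%, beside 21.7%. At both limits few of the Hox regions were counted, and at the other genes the share was near that of the list. Regions per 10 kb became 0.899, against 2.07, with the 15000 strongest regions. The windows of all genes then held 1.43 per 10 kb and the whole arms 1.12. Wider or narrower windows and shorter lists take in more or fewer regions by construction. The optimal set could not be called again without a replicate. Optimal peaks with a top-2397 region in both remaining replicates gave 3 genes (9.38%) each time. Of all genes it was 12.2% without replicate 1, 12.3% without replicate 2 and 12.5% without replicate 3. A top region in both also gave 3 each time, with no share of all genes given here. That second rule asks for less than a top region in every replicate, so its count could not fall below 3. The first of these rules also demands a top region, which the optimal set does not, and inv was lost whichever replicate was left out. No paired analysis was possible because the samples form 1 group. Depth is not given and limits what a missing region can show.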
